A study of Mus musculus with 10 samples.

Results

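Interferon-responding T cells were taken here as T cells that carried transcripts of Ifit1 and Ifit3, which encode antiviral RNA-binding proteins induced by interferon. The members were chosen by measured values. A cell needed at least 300 detected genes, at most 10% mitochondrial UMIs (unique molecular identifiers, each counting 1 captured RNA molecule), a productive T cell receptor beta (TRB) contig in the same tumour, and at least 2 UMIs of Ifit1 and Ifit3 together. Of 22590 cell barcodes, 21549 passed the quality limits, 16169 of these had a productive TRB contig, and 132 were members. They were compared with 15623 TRB cells that had 0 UMIs of both genes (called Ifit-negative cells). The remaining 414 TRB cells had 1 UMI and were used only to describe the threshold.

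The cells came from mouse colorectal carcinoma, and their RNA was profiled from the 5′ end in droplets, with matched T cell receptor libraries. There were 2 untreated tumours, 1 tumour treated with S. chamaejasme (Stellera chamaejasme, a flowering plant) and 2 treated with S. chamaejasme plus anti-PD-1 therapy, called the combination. No group received anti-PD-1 alone. The labels give no strain, genotype, age, tumour model, dose or time, and do not say whether replicates were separate animals. P-values therefore refer to these libraries only, whose spread may be technical. Most came from a fit that pools spread over genes, so they do not measure the spread of a single gene. No batch is named, so treatment and any batch that went with it cannot be told apart.

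Members numbered 9 and 16 in untreated replicates 1 and 2, 18 in the S. chamaejasme library, and 52 and 37 in combination replicates 1 and 2. Their summed RNA was 40645, 64546, 70949, 333517 and 237527 UMIs in that order, against 5599764 to 22700756 UMIs for the Ifit-negative cells of a library. Members were sequenced slightly deeper per cell, with a median of 5174 UMIs against 4466. The whole RNA libraries held 8763821 to 27759543 UMIs. Of 22337 distinct RNA barcodes, 251 occurred in more than 1 library, and 2 members had such a barcode. No doublet caller was run here; 7 members held 2 or more productive TRB chains.

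Type I interferons bind the receptor IFNAR1/IFNAR2 and act through the kinases JAK1 and TYK2. A complex that contains STAT2 and IRF9 then binds the interferon-stimulated response element (ISRE) in promoters of antiviral genes. Interferon gamma uses a receptor of its own and shares many targets, including guanylate-binding proteins and the MHC class I pathway. In tumours, interferon responses in T cells are known for effects on priming and survival as well as on inhibitory signalling.

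Ifit1 lies on the plus strand at chr19:34640871-34650009 and Ifit3 at chr19:34583531-34588731, in a gene cluster that also holds Ifit2, Ifit3b, Ifit1bl1 and Ifit1bl2. Isg15, which encodes a ubiquitin-like protein, lies on the minus strand at chr4:156199424-156200818 (GENCODE vM21 annotation of GRCm38, the assembly called mm10). The following promoter stretches are shown because they hold ISRE letters in genes that chose or marked the members. The motif searched was GAAANNGAAA, read as TTTCNNTTTC on the other strand. Each stretch is 30 bases, 5′ to 3′ on the gene's strand, upstream of the RefSeq start (GRCm38.p6), with the motif in capitals.
Ifit1 (chr19:34640794-34640823): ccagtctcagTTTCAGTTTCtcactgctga
Ifit3 (chr19:34583397-34583426): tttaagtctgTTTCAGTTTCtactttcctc
Isg15 (chr4:156200865-156200894): aaaggaaaccGAAACAGAAAatagctctgg
Rsad2 (chr12:26456553-26456582): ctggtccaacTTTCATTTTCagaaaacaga
Ifi214 (chr1:173536017-173536046): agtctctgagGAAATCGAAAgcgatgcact
The motif began 85 bases before the start of Ifit1, 122 before Ifit3, 66 before Isg15, 120 before Rsad2 and 79 before Ifi214. Over windows of 250 bases before to 50 after the start, 3.49% of 27025 promoters of all genes held it.

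The rule counts set the levels of both choosing genes, which are given as a description. Members held 278 UMIs of Ifit1 and 128 of Ifit3. Both genes were seen in 40 members, Ifit1 alone in 77 and Ifit3 alone in 15. Just 2 UMIs were found in 77 members, 55 had 3 or more, and the highest cell had 16. In the summed members, Ifit1 stood at 517, 542, 465, 312 and 358 CPM (UMIs of a gene scaled to a fixed total per sum) in the 5 libraries, ordered as above, and Ifit3 at 467, 170, 169, 147 and 156 CPM. The near-identical copy Ifit3b gave 5, 3, 0, 11 and 7 UMIs, and no test was applied to it because reads can be shared between copies.

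Untreated replicate 2 stood apart from the other libraries. The measure was the summed UMIs of 79 interferon-stimulated genes, a list without Ifit1 and Ifit3, per 10000 UMIs of a cell. Its members had a median of 39.5, close to the 34.7 of its Ifit-negative cells. In untreated replicate 1 the members' median was 181 against 34.2, in S. chamaejasme 130 against 42.6, and in combination replicates 1 and 2 it was 123 against 46.2 and 113 against 44.3. Of the 16 members of untreated replicate 2, 14 had Ifit1 alone, and their median was 37.7. Its other 2 members had both genes, at 255 and 264. Counts of called genes and log2 changes of some named genes are given with and without it. Interaction values of single genes are given with it only.

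**Figure D1:**
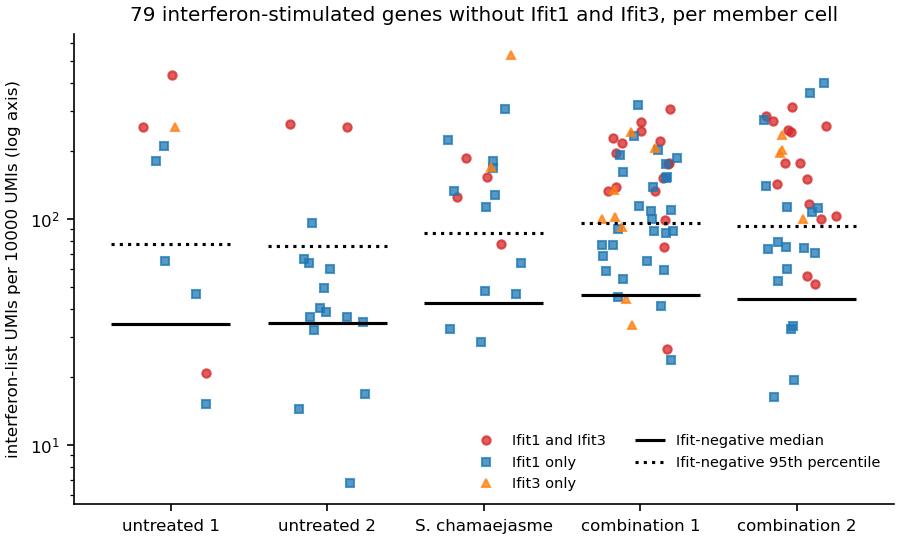
Each point is 1 member; the y axis (log scale) gives UMIs of 79 interferon-stimulated genes per 10000 UMIs of the cell, and lines mark the median and 95th percentile of the Ifit-negative cells of that library. The Ifit1-only members of untreated replicate 2 lie around the Ifit-negative median, at a median of 37.7, while 34 of the 40 members with both genes lie above the 95th percentile of their library.

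Members were not uniform. Over all libraries their interferon-list rate ran from 6.81 to 531, with a median of 111 against 41.9 in Ifit-negative cells. Members with both Ifit genes had a median of 177, members with Ifit3 alone 169 and members with Ifit1 alone 75.1. Without untreated replicate 2 these medians were 176, 169 and 88.4. Set against its own library, the rate was below the Ifit-negative median in 18 members and above the 95th percentile in 77. Members held UMIs of a median of 26 list genes per cell, against 12 in Ifit-negative cells matched for depth.

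Pooled over libraries, the interferon list rose with the number of Ifit UMIs, but not within every library. On the pooled summed level, cells with 0 UMIs of Ifit1 and Ifit3 stood at 4637 CPM, cells with 1 at 6832, cells with 2 at 9671, cells with 3 or 4 at 16186 and cells with 5 or more at 22723. Just outside and just inside the rule (1 and 2 UMIs), S. chamaejasme had 7014 and 11916 CPM and the combination replicates 7093 and 10545, and 7313 and 10432. Both untreated libraries ran the other way, with 8205 and 6518 CPM in replicate 1 and 4770 and 3811 in replicate 2, where Ifit-negative cells had 3849. These untreated levels with 2 UMIs came from 5 and 13 cells. In S. chamaejasme the single cell with 5 or more UMIs was lower, at 18538 CPM, than the 4 cells with 3 or 4, at 22560. Conversely, 312 of 15623 Ifit-negative cells reached the median rate of the members. Isg15 was seen in 84 members (63.6%) against 25.4% of Ifit-negative cells and 21.2% of depth-matched ones. No cell type that should lack Isg15 is known for these samples, so background from free RNA was not separated.

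Members made up 0.639% (95% Wilson interval 0.337 to 1.21) and 0.645% (0.398 to 1.05) of the TRB cells of untreated replicates 1 and 2. The S. chamaejasme library had 0.470% (0.298 to 0.742), and combination replicates 1 and 2 had 1.21% (0.921 to 1.58) and 0.893% (0.648 to 1.23). Both combination shares lay above both untreated shares, by 0.407 percentage points on average. The exact permutation test gave p = 0.333 (two-sided, 2 against 2), the smallest this design allows. Depth moved with the groups, since the median TRB cell had 5186 and 5059 UMIs in the combination against 3786 and 4162 in untreated tumours. For thinning, cells under 2000 UMIs were left out, 45, 63, 291, 81 and 73 in the 5 libraries. After each remaining cell was thinned to 2000 UMIs the expected shares were 0.333, 0.242, 0.207, 0.322 and 0.275%, and the difference was 0.011 points (exact permutation p = 1). Counting only cells with 3 or more UMIs, without thinning, the shares were 0.284, 0.121, 0.131, 0.510 and 0.507%, a difference of 0.306 points (exact permutation p = 0.333). With 2 libraries against 2, none of these differences could pass the test, and the part of depth was not tested. Barcodes without a TRB contig reached 2 UMIs in 0.331, 0.671, 0.126, 0.538 and 0.784%, at median depths of 2810 to 3897 UMIs. Intervals cover counting error only.

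**Figure D2:**
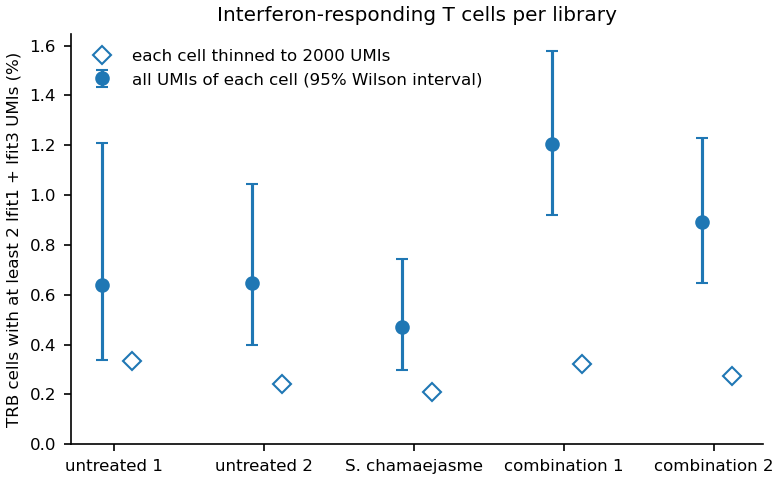
Percent of TRB cells that were members in each of the 5 libraries, with all UMIs (filled points, 95% Wilson intervals). Open diamonds give the expected percent after thinning to 2000 UMIs, among cells with at least that many. The combination lies higher with all UMIs, at 1.21 and 0.893%, but thinned shares lie between 0.207 and 0.333% in all libraries.

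The first comparison asked what else distinguished members from Ifit-negative cells of the same library. UMIs were summed per class and library, Ifit1 and Ifit3 were removed, and edgeR's quasi-likelihood test was fitted with the library as a block. Other genes were not used by the rule but were counted in the same cells, and many are induced by the same signal. Of 8876 genes tested, 132 were higher (1.49%) and 57 lower (0.642%) at a Benjamini-Hochberg adjusted p under 0.05. The median change of all genes tested was -0.12 on the log2 scale. Of the higher genes, 98 were higher in 5 of 5 libraries; of the lower genes, 45 were lower in all 5.

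Antiviral effectors rose most. Mx1, a dynamin-like GTPase that blocks viral replication, stood at 246, 46.5, 70.5, 66.0 and 101 CPM in members and at 0.936 to 2.23 CPM in Ifit-negative cells. Members were higher in each library, and the log2 change was 5.84 ± 0.32 (SE, adjusted p = 1.04e-69 with edgeR and 6.67e-06 with limma voom). Its UMIs came from 29 members, at most 6 in 1 cell, and those of untreated replicate 2 were 3 UMIs of a single cell. Rsad2, encoding viperin, rose by 5.71 ± 0.36 and Cmpk2, its neighbour that encodes a nucleotide kinase, by 5.25 ± 0.35. Without untreated replicate 2 the changes of Mx1, Rsad2 and Cmpk2 were 5.86, 5.71 and 5.36. Isg20, an RNA exonuclease, rose by 3.33 ± 0.21, from 22.3 ± 4.72 to 255 ± 92.3 CPM (mean ± SD, n = 5 libraries). Isg15 stood at 1993, 434, 1508, 576 and 711 CPM in members against 66.6 to 117 CPM, a change of 3.06 ± 0.15. It was lowest in untreated replicate 2, where its 28 UMIs came from 4 members, but above every Ifit-negative sum there too.

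Of 79 interferon-stimulated genes in the files, 65 could be tested; 58 rose and 1 fell, and the list's median log2 change was 1.86. Further risers were Rtp4, a receptor-transporting protein (3.45), the growth regulator Slfn5 (3.47), the ADP-ribosyltransferase Parp12 (3.13), the DNA sensor family member Ifi214 (3.07) and Oas3 (3.89), which makes the activator of RNase L. The exception, Ifitm2, had 2 UMIs in members where 13.7 were expected from the Ifit-negative cells of the same libraries, a ratio of 0.146 (95% counting interval 0.0177 to 0.528). DESeq2 called 56 of the 65 higher and none lower. Between members and depth-matched Ifit-negative cells only 26 of these genes had enough counts to be tested, and all 26 were called higher.

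Among GTPases of the GBP and IRG families, which attack intracellular pathogens, 14 of 16 tested rose and none fell (median 1.94). Gbp6 rose by 3.08 ± 0.32 and Gbp2 by 2.46 ± 0.19. Of the nucleic acid sensors 9 of 13 rose (median 1.60), among them Dhx58 (3.40) and Ifih1 (2.74), which bind viral RNA, and Zbp1 (2.73), which binds Z-form nucleic acids. In MHC class I processing 8 of 24 rose (median 0.56), with the nonclassical class I genes H2-T24 (2.21) and H2-T23 (0.98), the peptide transporter Tap1 (0.98) and the immunoproteasome subunit Psmb10 (0.97) leading. The other 16 class I genes did not pass the test, though 21 of the 24 had a log2 change above 0. Against depth-matched Ifit-negative cells 19 of the 24 could be tested, and 11 were called higher.

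Signalling components split by role. The receptor subunits Ifnar1 and Ifnar2 gave log2 changes of -0.08 ± 0.23 and 0.00 ± 0.27 and did not pass the test. Transcription factors of the pathway did: Irf7 rose by 2.70 ± 0.18, Stat2 by 1.75 ± 0.36, Irf9 by 1.35 ± 0.25 and Irf2, a repressor of the family, by 0.79 ± 0.20. Irf7 was at 418, 170, 352, 399 and 396 CPM in members and at 42.9 to 57.8 CPM in Ifit-negative cells. In all, 5 of 19 genes of the receptor, JAK-STAT and IRF list rose and none fell. Of 11 genes that restrain the pathway, Usp18 and Irf2 rose; Usp18, which removes ISG15 from proteins and blocks the receptor, did so by 3.73 ± 0.29. For the ligands, Ifnb1 had 3 UMIs in 2 of all 22590 barcodes and 0 in members. Ifng, encoding interferon gamma, changed by 0.49 ± 0.27 (adjusted p = 0.61, edgeR).

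**Figure D3:**
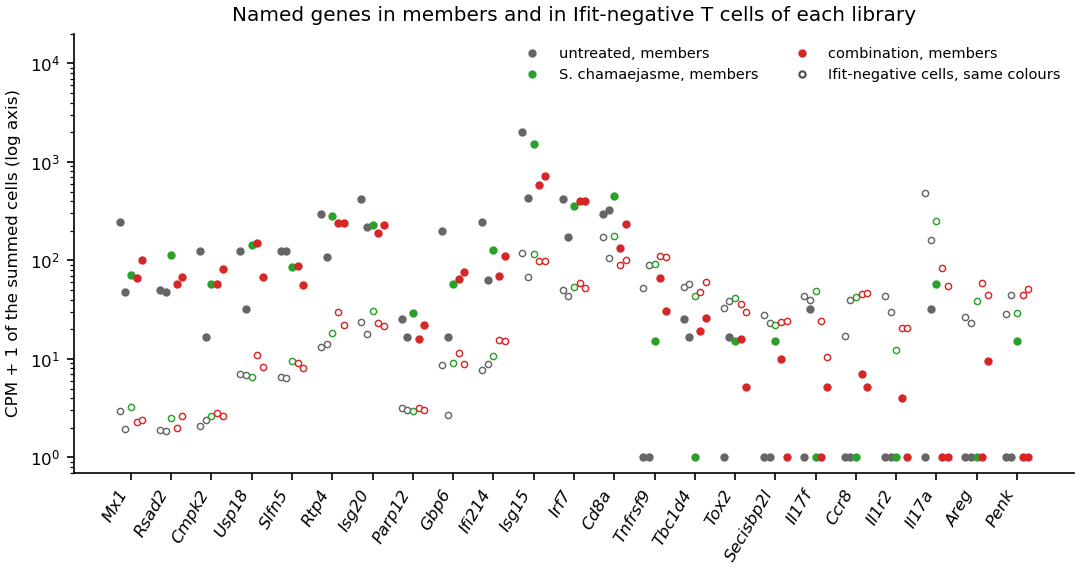
CPM + 1 (log axis) of the summed members (filled) and Ifit-negative cells (open) in each library, for the 10 genes with the largest rise, Isg15, Irf7 and Cd8a, and the 10 genes with the largest fall that met the naming rule. Filled points lie above open ones in all 5 libraries for the first 13 genes and below them for the last 10.

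Genes of the type 17 and Treg lists were among the lower genes. Of 10 tested genes of the type 17 list, 4 fell and none rose (median -1.64). Il17a, the signature cytokine, was at 0, 31.0, 56.4, 0 and 0 CPM in members against 479, 160, 249, 82.0 and 53.9 CPM. It lay lower in every library, with 6 UMIs where 87.6 were expected (ratio 0.0685, 95% counting interval 0.0251 to 0.149). Such intervals treat each UMI as independent, so they are too narrow where a few cells hold most UMIs of a gene. Il17f had 3 UMIs against 17.6 expected, a ratio of 0.17 (95% counting interval 0.0351 to 0.498). The other 2 were Tmem176a, with 1 UMI against 9.74 expected, and Il22, an epithelial repair cytokine, which was lower in 4 of 5 libraries (log2 change -1.60 ± 0.31) with 19 UMIs from 2 cells.

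Of 14 Treg list genes, 4 fell. Penk, encoding proenkephalin, had 1 UMI against 32.5 expected (ratio 0.0308, interval 0.000779 to 0.172), and the repair factor Areg 2 against 34.4 (0.0581, 0.00703 to 0.21). The others were the inhibitory receptor gene Ctla4 (log2 change -0.72 ± 0.17) and Tnfrsf4, encoding OX40 (-0.90 ± 0.20). Foxp3, the defining Treg factor, did not pass the test (0.14 ± 0.37, 24 UMIs in 7 members). The chemokine receptor gene Ccr8 had 3 UMIs against 31.7 expected (0.0947, 0.0195 to 0.277), and the decoy receptor gene Il1r2 had 1 against 15.6 (0.0642, 0.00162 to 0.358). Also lower were Tnfrsf9, encoding 4-1BB (-1.45 ± 0.28), the exhaustion-linked factor Tox2 (-1.70 ± 0.48), Secisbp2l (-2.12 ± 0.63) and Tbc1d4, with 14 UMIs against 38.5 expected. Il4 had no UMI in members, at least 3.58-fold lower than the 10.7 expected, taking 3 counts over all members as the floor. That bound and the intervals cover counting error of independent UMIs only.

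Alternatives kept more of the higher than of the lower calls. DESeq2 called 110 of the 132 higher genes and 12 of the 57 lower ones. With limma voom and weights per class it was 92 and 11. Against depth-matched Ifit-negative cells 59 higher genes could be tested and 51 were called, while 27 lower genes could be tested and 4 were called; all 86 kept their direction. Without untreated replicate 2, 123 of the 132 and 32 of the 57 were called.

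**Figure D4:**
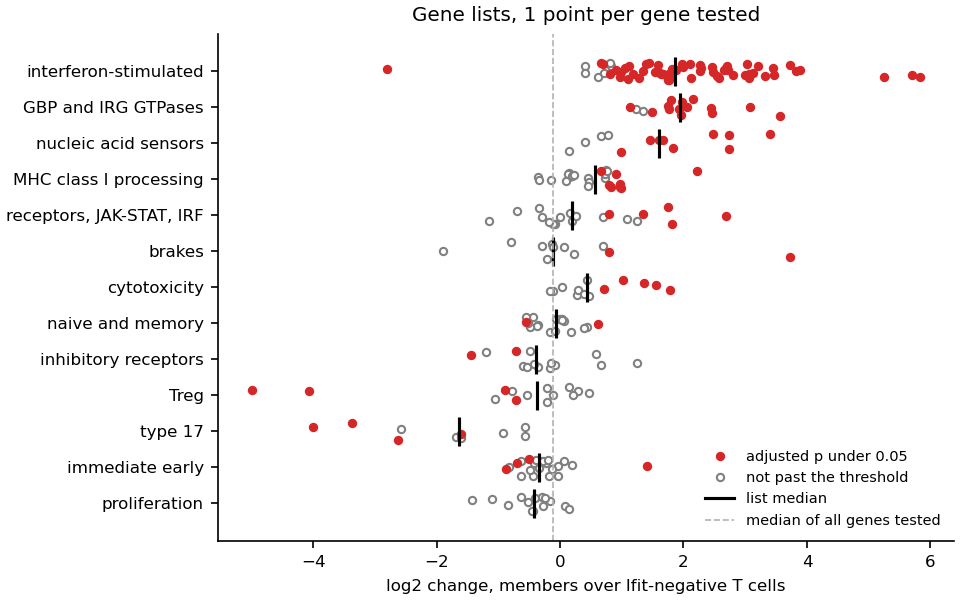
Log2 change between members and Ifit-negative cells for each tested gene of 13 lists; red points passed an adjusted p under 0.05, bars are list medians and the dashed line is the median of all genes tested (-0.12). The interferon, GTPase and sensor lists lie to the right, with medians from 1.60 to 1.94, and the type 17 list lies to the left at -1.64.

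The ISRE letters were then counted in the promoters of the called genes. Of 132 higher genes 105 had an entry in the promoter table, and 36 of these (34.3%) held the motif. Among the 42 lower genes with an entry, 1 held it (2.38%), and among all tested genes 222 of 6934 did. Higher genes outside the interferon-stimulated list held it in 22 of 59 (37.3%). Called genes outside that list include GTPases and sensors of other lists, such as Gbp2, Dhx58 and Zbp1, so they are not free of interferon targets. Of the 10 named risers, Rsad2, Slfn5 and Ifi214 had a match upstream of the start; Cmpk2, Isg20 and Parp12 had none in this window. Mx1, Usp18, Rtp4 and Gbp6 are named only. A match describes letters in the window and is not a measured binding site.

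The share of cells with CD8 transcripts was higher among members in each of the 5 libraries. A cell was put in the CD8 gate with at least 1 UMI of Cd8a or Cd8b1 and 0 of Cd4, and in the CD4 gate with the reverse. The CD8 gate held 35.0% ± 8.63 of members and 20.2% ± 2.86 of Ifit-negative cells (mean ± SD, n = 5 libraries). The difference was 14.8 points and positive in 5 of 5 libraries, with an exact sign-flip permutation p of 0.0625, the smallest that 5 libraries allow. Against depth-matched cells it was 9.46 points. The CD4 gate held 31.6% ± 16.1 and 33.5% ± 6.84 (exact permutation p = 0.813). Cells with a Foxp3 UMI were 3.73% ± 3.52 and 5.97% ± 2.17 (exact permutation p = 0.0625). This rests on 0, 0, 1, 4 and 2 such members in the 5 libraries. Shares were nearly equal in S. chamaejasme (5.56 against 5.76%) and combination replicate 1 (7.69 against 7.76%). Cd8a and Cd8b1, which define the gate, had 165 and 308 UMIs in members against 79.8 and 121 expected. Both passed the test over all cells, and inside the CD8 gate their log2 changes of 0.01 and 0.22 did not.

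Some of the named interferon genes were called within both gates and some were not. Zbp1 rose by 2.72 in the CD8 gate and 2.35 in the CD4 gate, and Rtp4 by 3.36 and 3.61, all called by edgeR. Irf9 was called in the CD8 gate (1.53) and not in the CD4 gate (0.91, adjusted p = 0.644, edgeR), and Stat2 in neither. Mx1 (5.58) and Gbp6 (3.07) were called in the CD8 gate and had too few counts to be tested in the CD4 gate. In the gates 55 and 49 genes were called higher and 15 and 16 lower, of 5895 and 6281 tested. The difference between the gates was not tested.

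Cytotoxic genes rested on few cells. Gzmb, encoding granzyme B, stood at 1525, 713, 3467, 0 and 114 CPM in members against 52.3 to 289 CPM. It was higher than in Ifit-negative cells in 4 libraries and lower in combination replicate 1. Its 381 UMIs came from 12 members, and 1 cell of the S. chamaejasme library gave 172. edgeR called it (1.79 ± 0.17), while DESeq2 (adjusted p = 0.999) and limma voom (adjusted p = 0.403) did not. Gzma (1.35), Gzmk (1.55), the receptor gene Klrd1 (1.02) and, named after its value was seen, Nkg7 (0.70) were also called, making 5 of 13 cytotoxicity genes, but DESeq2 did not call Gzma, Gzmk or Klrd1. Gzmk came from 14 members. Within the CD8 gate Gzma (0.06), Gzmk (-0.41) and Klrd1 (0.25) were not called, and Gzmb was (1.13, adjusted p = 0.022, edgeR). Against depth-matched Ifit-negative cells none of the 6 cytotoxicity genes that could be tested was called, and 4 had an unadjusted p under 0.05 (edgeR).

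Of 18 naive and memory genes 1 fell, Klf2, a quiescence factor that drives homing genes (-0.56 ± 0.14, lower in 5 of 5 libraries). Tcf7, a factor of naive and memory T cells, did not pass the test (-0.53 ± 0.18, adjusted p = 0.12). Pdcd1, the target of anti-PD-1, changed by -0.08 ± 0.31 with 33 UMIs in 9 members. Cd4 changed by -0.53 ± 0.23 (adjusted p = 0.36). None of 14 tested proliferation genes passed, and Mki67 had 2 UMIs in members against 2.57 expected. Of 22 immediate early genes Egr1, Rel and Nr4a1 fell and Ier3 rose, none of them called by DESeq2.

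Markers of other cell types were measured in the same sums. The 9 T cell markers summed to 3764 to 5779 CPM in members and 3628 to 4834 in Ifit-negative cells. The 15 myeloid markers summed to 24.6 to 113 CPM in members against 97.1 to 153, with 12 to 14 of them at 0 per library. All 9 neutrophil and mast cell markers were at 0 in every member sum. NK markers reached at most 25.3 CPM, against 6.79 to 82.8, B and plasma cell markers at most 139, against 43.0 to 158, and tumour epithelium markers at most 28.2, against 5.89 to 17.3. Gamma delta markers were at most 46.5 CPM except in untreated replicate 1, where 2 members gave 320 CPM, against 19.4 to 84.3 in Ifit-negative cells; their part in the results was not tested. The dendritic list was higher, at 325 to 615 against 102 to 129 CPM. It contains Bst2, itself induced by interferon (2.47 ± 0.17), the only one of its 5 tested genes that rose; Ccr9 fell, with 1 UMI against 10.5 expected.

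Members were spread over 131 clones, and only 1 clone held 2. A mean of 19.7% ± 18.1 of members and 13.9% ± 7.85 of Ifit-negative cells belonged to clones of 2 or more cells (exact sign-flip permutation p = 0.375). The 2 largest clones with members were both in the S. chamaejasme library and are shown to identify them. The clone of 44 cells, all in the CD8 gate, held 1 member and no cell with 1 UMI. The clone of 33 cells, 31 of them in the CD8 gate, held the only pair of members and 1 cell with 1 UMI. Their CDR3 sequences, the most variable stretch of each receptor chain, are given 5′ to 3′ with no base singled out.
44-cell clone, TRBV13-3 and TRBJ1-4: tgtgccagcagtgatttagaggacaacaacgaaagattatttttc
44-cell clone, TRAV14D-2 and TRAJ45: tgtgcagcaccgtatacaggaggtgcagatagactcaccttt
33-cell clone, TRBV1 and TRBJ1-2: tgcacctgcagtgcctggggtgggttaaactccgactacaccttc
33-cell clone, TRAV14D-2 and TRAJ49: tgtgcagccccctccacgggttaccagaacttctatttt
Ifit-negative cells made up 43 of 44 and 30 of 33 cells of these clones. Among all TRB cells of that library they made up 3751 of 3828, so these counts set the clones apart in no tested way.

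The next comparison asked how members differed between treatments. Of 1322 genes with enough counts in the member sums, 3 were higher in the combination than in untreated tumours (0.227%) and 14 lower (1.06%). The untreated sums hold 25 cells, and without untreated replicate 2 no gene was called (edgeR, 351 of 2906 genes at an unadjusted p under 0.05). It called 1 gene without untreated replicate 1, 3 without the S. chamaejasme library, and 1 without members that carried 2 TRB chains. Values per library are therefore given first.

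Ly6a, encoding the surface protein Sca-1, had 0 UMIs in both untreated sums, 3 in S. chamaejasme, and 69 and 43 in the combination. It was seen in 0 of 25 untreated members, 2 of 18, 14 of 52 and 9 of 37. The combination level was at least 6.88-fold higher (floor of 3 counts over the untreated group; edgeR adjusted p = 0.0352, DESeq2 0.0662). Ifit-negative cells had 2.68 and 4.40 CPM in untreated tumours and 12.5 and 9.50 in the combination. Ifi27l2a, a mitochondrial interferon-induced gene, stood at 738 and 635 CPM in untreated, 1550 in S. chamaejasme and 1829 and 1427 in combination members. These groups did not overlap (log2 change 1.31 ± 0.25, edgeR adjusted p = 0.0394). The third riser was the actin gene Actb (0.66 ± 0.13), which DESeq2 did not call (adjusted p = 0.234). Without untreated replicate 2 the log2 changes of Ifi27l2a and Actb were 1.39 and 0.78.

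Genes lower in the combination differed in how many untreated members carried them. Gzmb changed by -4.36 ± 0.74 on the log2 scale, but its 62 and 46 untreated UMIs came from 2 cells in each library, and in the CD4 gate its change had the opposite sign (4.21). Ifitm3, encoding a membrane protein that blocks viral entry, had 763 and 263 CPM in untreated, 28.2 in S. chamaejasme and 8.99 and 80.0 CPM in combination members (-3.51 ± 0.69, edgeR adjusted p = 0.0394). A single cell held all 17 UMIs of untreated replicate 2. Tnf, the inflammatory cytokine, had 418, 201, 14.1, 33.0 and 42.1 CPM across the 5 libraries and changed by -2.92 ± 0.59. The protease inhibitor gene Ctla2a (-3.53 ± 0.51) and Rora, a type 17 transcription factor (-1.99 ± 0.44), were lower too. Ctla2a came from 3 members in each untreated library, where the highest cell held 19 of 26 and 14 of 18 UMIs. Rora was seen in 3 and 5 untreated members. Also named were Lilr4b, with 19 and 4 untreated against 1 and 2 combination UMIs, and Hist1h4n (-2.55), seen in 7 members of each untreated library. DESeq2 did not call Gzmb (adjusted p = 0.974), Rora (adjusted p = 0.240) or Hist1h4n (adjusted p = 0.0625). AY036118 (-1.61), listed here among RNA-quality transcripts, was seen in all 25 untreated members. Ifit-negative cells were also lower in the combination for each of these genes. There edgeR called Gzmb (-1.50), Tnf (-0.44), Ctla2a (-1.52), Rora (-1.04), Lilr4b (-2.03), Hist1h4n (-0.85) and AY036118 (-1.64), and not Ifitm3 (-0.84).

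**Figure D5:**
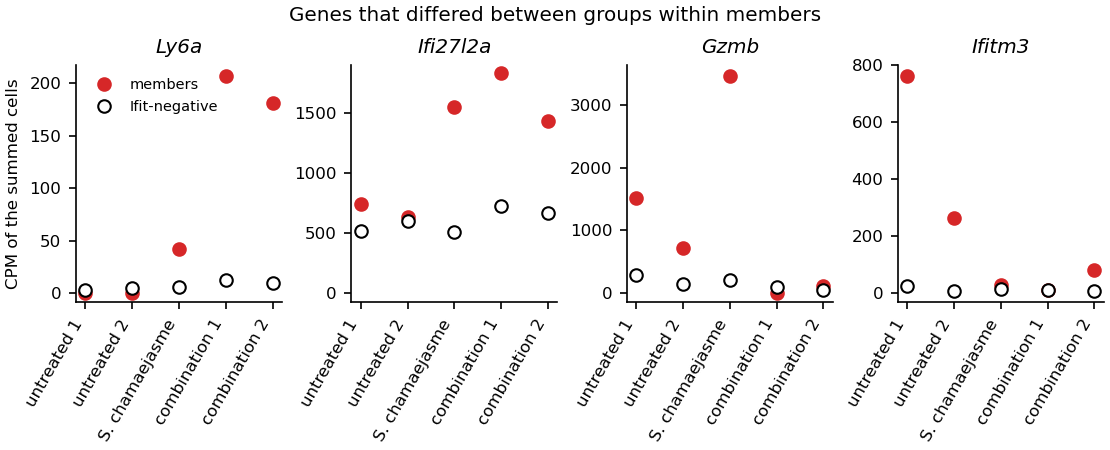
CPM of the summed members (red) and Ifit-negative cells (open) in each of the 5 libraries for Ly6a, Ifi27l2a, Gzmb and Ifitm3. Members rise to 207 and 181 CPM of Ly6a in the combination from 0 in untreated tumours, while Gzmb is highest in S. chamaejasme members and Ifitm3 in untreated ones.

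Few interferon-stimulated genes were called between groups. Of 42 testable interferon-stimulated genes, Ly6a and Ifi27l2a were higher and Ifitm3 lower in the combination than in untreated members, and the list's median was 0.19 against -0.04 for all genes tested. Isg15 changed by -0.78 ± 0.44, Irf7 by 0.59 ± 0.36 and Mx1 by -0.60 ± 0.69, none past the threshold. Without untreated replicate 2 the values were -1.40 for Isg15, 0.17 for Irf7 and -1.34 for Mx1, again none past it. For S. chamaejasme against the same untreated libraries, 0 of 1322 genes were higher (0%) and 2 lower (0.151%), the mitochondrial leucyl-tRNA synthetase gene Lars2 (-3.07 ± 0.39) and the ribosomal gene Rps29 (-0.87 ± 0.14). In Ifit-negative cells the log2 changes were -2.09 for Lars2 and -0.90 for Rps29. With 1 S. chamaejasme library, its spread was assumed to be that of the other groups. Lars2 is on the same RNA-quality list, whose summed level was 24333, 32969, 12587, 27909 and 12331 CPM in the members of the 5 libraries, and the part of RNA quality was not tested. Against S. chamaejasme, the combination had 4 genes higher (0.303%) and 2 lower (0.151%). S1pr1, the receptor for lymph node exit, was higher by 3.33 ± 0.65, with 2 UMIs in the S. chamaejasme members and 87 and 66 in the combination, as were Lars2 (2.03 ± 0.38), Rpl5 (1.73 ± 0.33) and Rpl17 (1.30 ± 0.25). Gzmb (-5.98 ± 0.76) and Rgs1 (-1.66 ± 0.31), a regulator of G protein signalling, were lower. Ifit-negative cells changed in the same directions, with S1pr1 at 0.66, Lars2 0.66, Rpl5 1.15, Rpl17 0.88, Gzmb -1.38 and Rgs1 -1.09. DESeq2 called none of these 6.

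Whether the combination effect differed between members and Ifit-negative cells was tested as an interaction in edgeR. Of 8876 genes 66 were higher (0.744%) and 10 lower (0.113%), but this split depended on the scaling. Ribosomal genes made up 39 of the 66. With TMM factors the median of all genes was 0.41, with upper quartile scaling 0.17 and with UMI totals alone 0.04. Without untreated replicate 2, with TMM factors, the median was 0.94. Upper quartile scaling called 0 higher and 10 lower, and totals alone 3 higher and 23 lower; all 10 lower genes were called each time. Without combination replicate 1 none was called, and without combination replicate 2 it was 4 higher and 6 lower. DESeq2 and limma voom called none (170 and 792 genes at an unadjusted p under 0.05). The change of Ly6a in members exceeded that in Ifit-negative cells but did not pass the test (adjusted p = 0.0984), and Isg15 (-0.44 ± 0.24) and Irf7 (0.67 ± 0.36) did not either.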

How the data were processed

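Each RNA matrix gives unnormalized UMI counts, as deposited by the authors, and each receptor table the deposited read and UMI counts of assembled contigs. Per the submitters' processing notes, Cell Ranger 3.1.0 with STAR and mm10 were used; the annotation release is not given in the sources used here. RNA and receptor libraries were matched by title. Members and gene lists were chosen with earlier results of these data known.

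UMIs were summed per library and class. For tests of the sums, edgeR 4.0.16 was run under R 4.3.3 (quasi-likelihood, two-sided, TMM scaling, genes kept by filterByExpr, Benjamini-Hochberg threshold 0.05). The fit of members against Ifit-negative cells had the library as a block, by construction. Standard errors were taken from the log2 change and the F statistic (change divided by root F). CPM use the UMI total of the sum, without scaling factors. Expected UMIs are the Ifit-negative rates times the member totals, with exact Poisson 95% intervals. These intervals and the floors of 3 counts do not cover clumping of UMIs in few cells. Depth-matched cells are the 2 Ifit-negative cells of the library nearest in UMIs to each member. Alternatives were DESeq2 1.42.0, limma 3.58.1 (voom), other scalings, filters and cell sets. Limma voom, depth matching of the interaction and scaling by UMI totals were added after seeing the data. On simulated sums, TMM moved unchanged genes upward in the interaction and scaling by totals did so less. Other steps used scipy 1.17.1, numpy 2.4.6, matplotlib 3.10.9 and pandas 2.3.3 in Python 3.11.15.

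Against Ifit-negative cells, the 10 genes with the largest rise and the 10 with the largest fall were named among those called, in the same direction in 5 libraries and with at least 20 CPM in the higher class. Between groups and for the interaction it was up to 8 each way, without overlap. List genes (up to 4 called each way) and a fixed set of receptors, factors and T cell genes were added. V, D, J segments and provisional names were skipped. Some genes of the lists are not reported here.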

Additional observations from a re-analysis of the deposited data

Results flagged for a closer look

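The edgeR interaction test called 76 genes, and the 15 chosen by the naming rule are listed here. In them the combination changed members and Ifit-negative cells to a different degree. A value below 0 means a lower change in members. Of the 15 genes, those with negative values were called under all 3 scalings run. They were Il22 (-10.19), Lilr4b (-3.06), Gzmb (-2.60), Ifitm3 (-2.39), Ifng (-2.31), Tnf (-2.20) and Ctla2a (-1.73). The Il22 value rests on 19 UMIs in 2 untreated members against 0 UMIs in the combination, so its fitted size depends on the prior count. Ifng came from 3 untreated and 6 combination members.

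The positive values were Nfatc1 (3.70), Tnfrsf4 (3.31), Relb (2.99), Tnfsf8 (2.98), Rbm38 (1.58), Thy1 (1.43), Ifi27l2a (1.31) and Ctla4 (1.26). None of these was called with upper quartile scaling, and with UMI totals alone Tnfrsf4 (adjusted p = 0.018, edgeR) and Ifi27l2a (adjusted p = 0.000854, edgeR) were. Untreated members held 0 and 2 UMIs of Tnfrsf4 and 1 and 0 of Nfatc1. DESeq2 and limma voom called none of the 15 genes.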

How the results depend on the processing

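Members against Ifit-negative cells gave 189 calls. Without the replicate block it was 122, with depth-matched cells 66 of 1588 genes tested, in the CD8 gate 70 and in the CD4 gate 65, leaving out 1 library gave 125 (combination replicate 2) to 187. Replicate numbers follow accession order and pair no libraries across groups. Combination against untreated members gave 17 calls, and 9 with upper quartile scaling, 40 with totals alone, 27 without the filter, 8 with DESeq2, 1 without cells of 2 TRB chains and 7 in the CD4 gate; leaving out 1 library gave 0 to 18. S. chamaejasme against untreated gave 2 calls, and in the same order of scalings, filter and tool 1, 9, 10 and 1. With members of 3 or more UMIs it gave 0 (41 of 488 at an unadjusted p under 0.05, edgeR), in the CD8 gate 1, in the CD4 gate 11 and leaving out 1 library 0 to 13. Combination against S. chamaejasme gave 6 calls, 22 with totals alone, 21 without the filter, 0 with DESeq2 (49 at an unadjusted p under 0.05), 0 without cells of 2 TRB chains (136, edgeR), 0 with 3 or more UMIs (41, edgeR), 1 in each gate, and 0 to 43 (untreated replicate 1) leaving out 1 library. The interaction gave 76 calls, 10 with upper quartile scaling, 26 with totals alone, 0 with DESeq2, 0 with limma voom, 5 of 1588 against depth-matched cells and 0 to 128 (untreated replicate 2) leaving out 1 library. No gene was called without untreated replicate 2 in either S. chamaejasme contrast (273 and 302 of 2906 genes at an unadjusted p under 0.05, edgeR), nor without combination replicate 1 in the interaction (360, edgeR). The rise in member share was 0.407 points, 0.011 after thinning and 3.18 when Isg15 counted toward the rule; leaving out 1 library gave 0.251 to 0.564. The CD8-gate difference ranged from 12.4 to 16.9 and the clone difference from 1.80 to 8.29 points leaving out 1 library. For genes named against Ifit-negative cells, 344 values under alternatives kept their call, 43 lost it and none reversed; for combination against untreated 66 kept it, 66 lost it and Gzmb reversed in the CD4 gate (4.21). For the interaction 80 kept it and 96 lost it. The cause was not tested. The untreated member sums were the smallest, at 40645 and 64546 UMIs from 9 and 16 cells.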
